A study of Mus musculus with 12 samples.

Results

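The genes described here encode the proteins of the cytosolic ribosome, followed in mouse testis with and without the transcription factors Sohlh1 and Sohlh2. The members were all probe sets whose only annotated gene symbol is Rpl or Rps and a number, with at most 1 letter after it, or Rplp0, Rplp1 or Rplp2. S6 kinases, genes with a pseudogene symbol (-ps) and mitochondrial ribosomal genes were left out. Rps4l, listed by RefSeq as a transcribed pseudogene, stayed in by its symbol. This gave 98 of the 45037 non-control probe sets and 45 of 18193 named genes, 24 of the large subunit and 21 of the small subunit. A gene was measured by its brightest probe set above a signal of 48.6 on at least 4 arrays, which left 44 of 45 genes and 90 of 98 probe sets among 13702 genes tested. Rps16, a small-subunit protein, dropped out because its only such probe set read 0.91 to 16.5. The set is not the whole ribosome. Another 103 probe sets name a ribosomal protein gene together with a pseudogene or an unnamed locus, and 24 further genes, among them Rplp1, Rpl3 and Rpl10, are represented only there. With these shared probe sets, 69 genes were measured.

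Whole testes of mice at postnatal day 7 were profiled on Affymetrix arrays, all on a C57BL/6, 129S5, SvEvBrd hybrid background. The groups were wild type (arrays 3, 4, 5 and 6), Sohlh1-/- (arrays 2, 3, 4 and 5) and Sohlh2-/- (arrays 1, 3-1, 4 and 5), with 4 arrays each. Every array held RNA pooled from 3 testes of 3 animals, so its spread is between pools, and no label says how the pools were formed. Each knockout is given by genotype alone, with no cell type named for the deletion, and all cell types of the testis were extracted together.

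A ribosome joins a large subunit, which forms peptide bonds, to a small subunit, which reads the mRNA. Nearly all its proteins are needed in equal numbers, and many of their mRNAs begin with a run of pyrimidines, the TOP motif, through which the kinase complex mTORC1 sets their translation. A few have paralogs. Rpl39l, an autosomal copy of the X-linked Rpl39, is known for its expression in male germ cells. Sohlh1 and Sohlh2 are basic helix-loop-helix factors of spermatogonia, a class of protein that binds E boxes.

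Promoter sequence was found in RefSeq (GRCm38.p6) for 39 of the 45 genes, as 47 windows from 250 bases before to 50 bases after a start site. The lines below show the 30 bases before and 20 bases after the start for the 5 genes on which the results turn, the paralogs Rpl39l and Rps27l, their parents Rpl39 and Rps27, and Rps6. They are written along the gene, and capitals mark the longest pyrimidine run (C or T) that reaches the interval from 10 bases before to 20 bases after the start.
Rpl39l, chr16:10170198-10170247, plus strand: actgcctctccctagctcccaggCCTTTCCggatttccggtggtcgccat
Rpl39, chrX:37085203-37085252, minus strand: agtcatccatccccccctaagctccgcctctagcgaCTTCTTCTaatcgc
Rps27l, chr9:66946056-66946105, plus strand: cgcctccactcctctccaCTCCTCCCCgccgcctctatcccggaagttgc
Rps27, chr3:90213629-90213678, minus strand: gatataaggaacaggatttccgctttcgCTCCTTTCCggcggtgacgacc
Rps6, chr4:86857348-86857397, minus strand: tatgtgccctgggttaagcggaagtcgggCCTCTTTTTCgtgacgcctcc
A run of at least 8 pyrimidines in that interval was found for 41.0% of the 39 genes, against 13.0% of all 27025 genes with a window. The run of Rpl39l has 7 bases, that of Rpl39 8, those of Rps27l and Rps27 9 each, and that of Rps6 10. Part of the Rps27l run lies before the interval and fewer than 8 of its bases lie inside, so Rps27l is not among the 41.0%. The ETS-factor motif CCGGAAGT, on either strand of the whole window, was in 23.1% of the ribosomal protein genes and 4.31% of all genes. Rps6 holds it, as does the Rps27l window shown. Another Rps27l start site, not shown, has no such motif and a longest run of 4. The E box CANNTG, a pattern that is its own reverse complement, was in 56.4% of the ribosomal protein genes and 75% of all genes. The windows of Rpl39l, Rps27l and Rps6 contain no E box, that of Rps27 contains 1 and that of Rpl39 contains 2. These are matches of letters in a fixed window and were not tested as binding sites.

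The checks of the whole series bear on every result that follows. Sohlh1 signal was 1125 to 1233 on the wild-type arrays, 50.2 to 104 on Sohlh1 knockout 2, 3 and 4, and 595 on the array labelled Sohlh1 knockout 5. Sohlh2 signal was 885 to 1200 in wild type, 73.2 to 157 on Sohlh2 knockout 3-1, 4 and 5, and 1847 on the array labelled Sohlh2 knockout 1. The other targeted gene was low there instead, with Sohlh2 at 94.4 on the first of these arrays and Sohlh1 at 126 on the second, so both go against their labels. The mean log2 3′/5′ ratio of the actin and Gapdh control probes, which rises when RNA is degraded or incompletely copied, was 0.64 on Sohlh1 knockout 2 and 1.27 on the array labelled Sohlh2 knockout 1, against -0.02 to 0.12 on the other 10. Counts are therefore also given without these 3 arrays.

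Ribosomal protein genes filled the top of the signal range, and as a family they differed between genotypes by less than the spread between arrays. Of the 44 genes, 32 had a mean signal above 10000, and all 32 lay above the 99th percentile of probe sets. The brightest probe sets of the 44 genes, counted alone, carried 2.88% ± 0.25 of the summed signal in wild type. In Sohlh1 knockouts they carried 3.00% ± 0.13 and in Sohlh2 knockouts 3.02% ± 0.21 (SD, n = 4 each). The other probe sets of these genes and the shared probe sets are left out, so this is not the share of the whole family. The highest wild-type signals belonged to Rps29 (46536 ± 5890), Rps28 (43184 ± 5954), Rpl38 (41125 ± 5126), the stalk protein Rplp2 (40154 ± 5040) and Rps14 (38862 ± 6555). The lowest of the genes tested were Rpl3l (65.1 ± 22.0), a striated-muscle paralog of Rpl3, then Rps27 (209.7 ± 146), Rpl14 (242 ± 35.2), Rpl39 (248 ± 87.3) and Rpl12 (299.7 ± 75.9). For Rps27, Rpl14, Rpl39 and Rpl12 the bright probe sets also name another locus. On those, signal averaged 25499.9 for Rps27, 24546 for Rpl14, 41351 for Rpl39 and 31781 for Rpl12, so a low signal here describes a probe set and not the gene's abundance. Fewer cells of a type and less RNA per cell cannot be told apart in such whole-organ RNA.

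The family moved together from array to array more than from genotype to genotype. For each gene the log2 signal was taken after adding 14.2 to every value, and its mean over the 12 arrays was subtracted. The median of the 44 deviations was -0.25, -0.10, -0.001 and 0.09 on wild type 3, 4, 5 and 6. It was 0.16, -0.03, 0.02 and -0.05 on Sohlh1 knockout 2, 3, 4 and 5. On Sohlh2 knockout 1, 3-1, 4 and 5 it was 0.19, 0.11, 0.03 and -0.17. The groups overlap throughout, and the widest gap inside a genotype, from 0.19 to -0.17, is larger than any gap between the group means of -0.07 ± 0.15, 0.02 ± 0.10 and 0.04 ± 0.16 (SD, n = 4 each).

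Counting genes gives the same picture. Only 3 of 44 genes were above their own 12-array mean on wild type 3, 5 on wild type 4, and 21 and 30 on wild type 5 and 6. In the Sohlh1 group the counts were 38, 12, 28 and 10 on arrays 2, 3, 4 and 5. In the Sohlh2 group they were 41, 39, 32 and 8 on arrays 1, 3-1, 4 and 5. The arrays with the raised 3′/5′ ratio had counts of 38 and 41, the highest of their groups, and Sohlh2 knockout 3-1, with an ordinary ratio, had 39. Actin control signal, another bright feature, was 32203, 37516, 43197 and 50584 on wild type 3, 4, 5 and 6, the same order of arrays as the family. In the knockouts the orders differed. Actin was 38933, 41900, 42056 and 36351 on Sohlh1 knockout 2, 3, 4 and 5, so the array with the highest family median was only the third for actin. On Sohlh2 knockout 1, 3-1, 4 and 5 it was 42904, 43769, 41789 and 36060, with the top 2 arrays exchanged. The part of RNA quality or array brightness in the family's level was not tested.

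**Figure D1:**
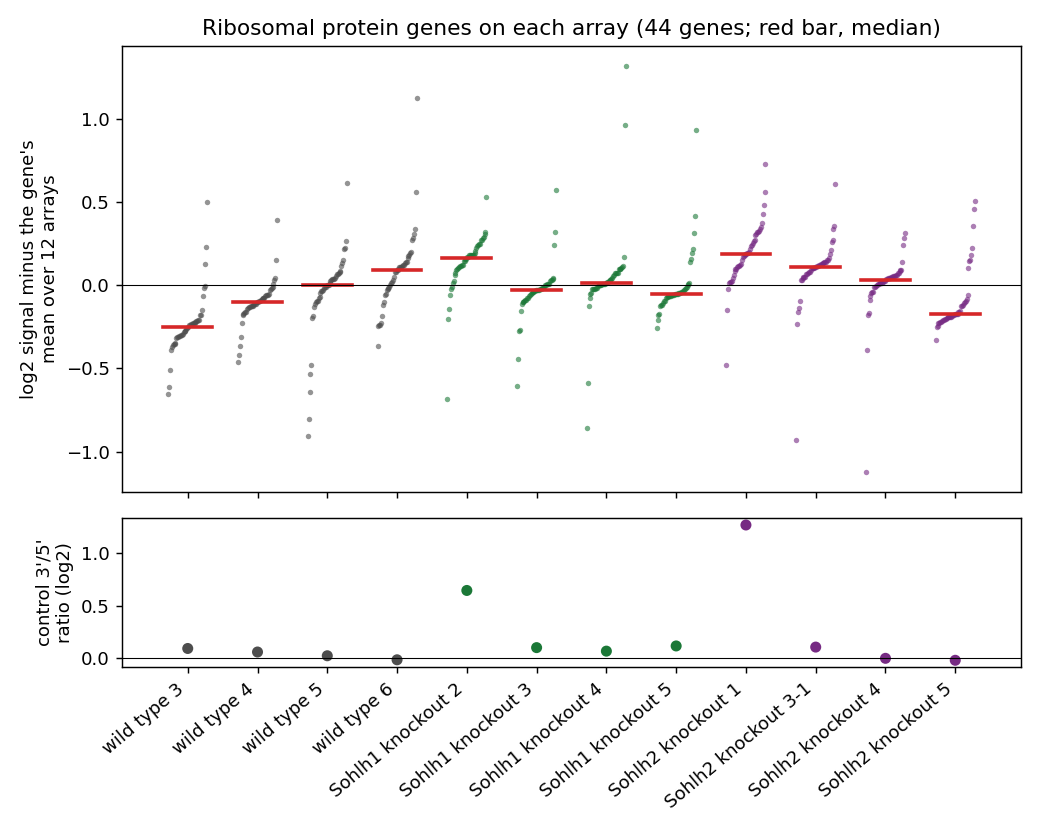
The upper panel plots, for each of the 12 arrays, the log2 signal of 44 ribosomal protein genes minus each gene's mean over all arrays (dots, in rank order within an array), with the median as a red bar; the lower panel plots the log2 3′/5′ ratio of the control probes. The red bars run from -0.25 on wild type 3 to 0.19 on Sohlh2 knockout 1, and the raised control ratios of 0.64 and 1.27 stand over the family medians of 0.16 and 0.19.

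The comparison of Sohlh1 knockout with wild type asks which transcripts differ in level in whole testis when Sohlh1 is deleted. Among ribosomal protein genes 1 of 44 passed the threshold, limma's moderated test with a Benjamini-Hochberg adjusted p under 0.05, and it was higher in the knockout. Of all genes tested 4.44% passed, 1.76% as higher and 2.69% as lower. The median log2 difference of the 44 genes was 0.11, against 0.03 over all genes, and 36 of 44 were above 0 (55.6% of all genes). The 24 large-subunit genes had a median of 0.15 and the 20 small-subunit genes 0.09. For the 32 bright genes the differences ran from -0.19 to 0.20, with a median 95% interval of ± 0.22 around each. After quantile normalization the 44 genes had a median of 0.01 and all genes 0.05. That scaling gives every array the same distribution, and 32 of the 44 genes lie above the 99th percentile of probe sets. A shift they share is largely taken out by construction, so this scaling cannot decide whether the family shifted. Without the 3 arrays in doubt, which leaves arrays 3 and 4 in the Sohlh1 group, 0 of these genes passed by limma (2 at an unadjusted p under 0.05). The median was 0.08. The number of all genes passing in that fit is not given, and over the alternatives the number ran from 322 to 1086.

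Sohlh2 knockout against wild type gave a nearly equal family shift. Of 44 genes 2 passed, both higher, where 3.75% of all genes did, 1.6% as higher and 2.15% as lower. The median was 0.10 against 0.02 over all genes, and 37 of 44 were above 0 (54.2% of all genes). Large-subunit genes had a median of 0.15 and small-subunit genes 0.09, as in the other knockout, though the comparisons share the wild-type arrays. Quantile normalization again left 0.01, under the 0.03 of all genes, where the same limit applies. Without the arrays in doubt, which leaves arrays 3-1, 4 and 5 in the Sohlh2 group, the median was 0.06, with 3 genes past the threshold. The number of all genes passing in that fit is not given, and over the alternatives the number ran from 148 to 1020. At an unadjusted p under 0.05 there were 11 of 44 genes here and 2 of 44 in the Sohlh1 comparison, where 17.5% and 19% of all genes reached it.

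Sohlh2 knockout against Sohlh1 knockout, the comparison of the mutants with each other, separated no ribosomal protein gene. Each group here holds 1 array whose targeted genes go against its label. Sohlh1 and Sohlh2 themselves did not pass (limma adjusted p = 0.99987 each), so the comparison could not separate even the targeted genes. Without the 3 arrays in doubt 0 ribosomal protein genes passed by limma. The count passing was 0 of 44 by limma, as it was for all genes (0%), with 2 of 44 at an unadjusted p under 0.05 (2.85% of all genes). In 0 of 44 did the groups stand apart (1.94% of all genes). With the shared probe sets included, 1 of 69 genes passed in each comparison with wild type, Rpl39l, and 0 between the knockouts, with medians of 0.11, 0.11 and 0.01. The median over the 44 genes was 0.01 against -0.003 over all genes. The 2 with an unadjusted p under 0.05 were Rps6 and Rplp0, both taken up below.

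**Figure D2:**
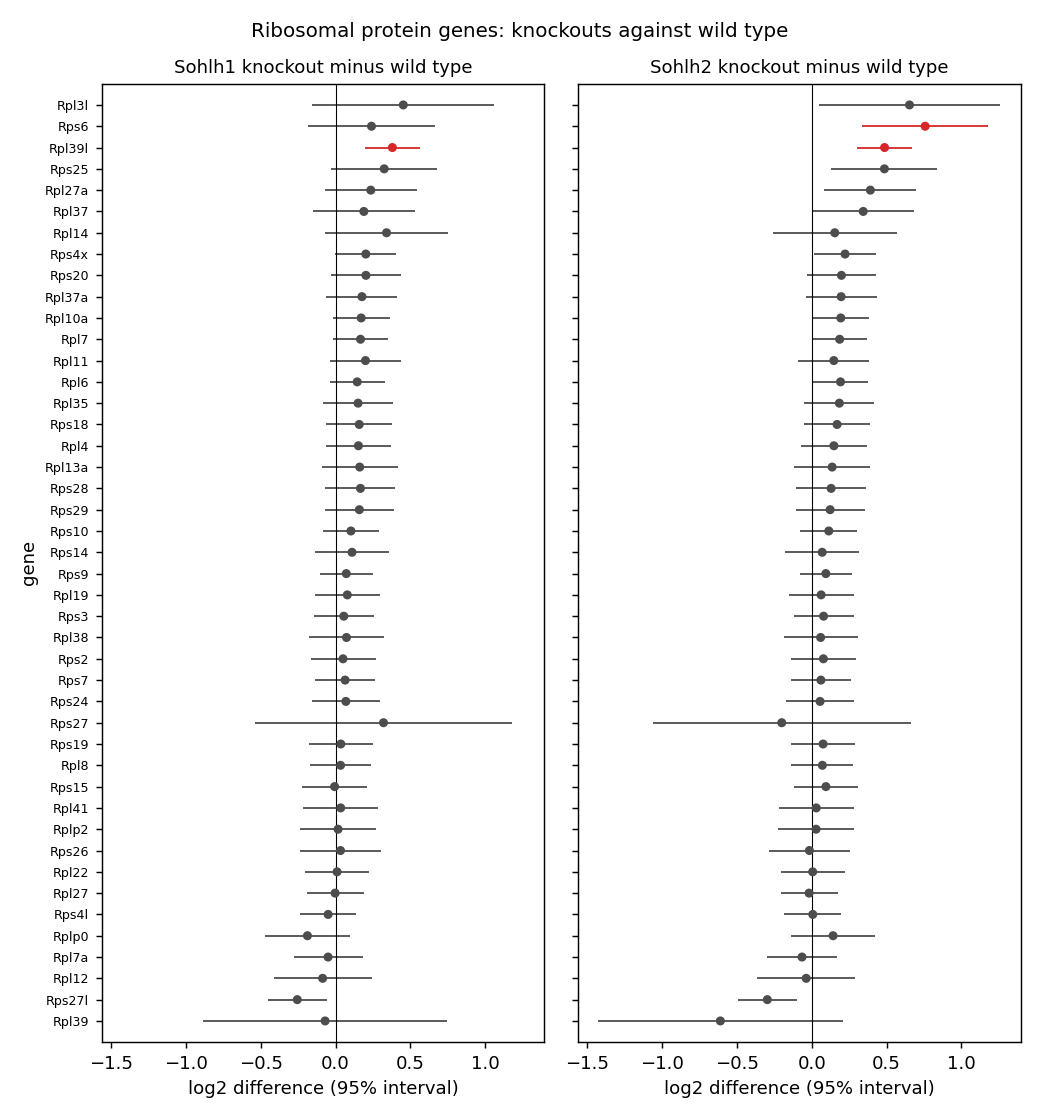
Each dot is the log2 difference of a ribosomal protein gene, Sohlh1 knockout minus wild type on the left and Sohlh2 knockout minus wild type on the right, with its 95% interval; red marks an adjusted p under 0.05. Rpl39l is red on both sides and Rps6 on the right, Rps27l lies below 0 on both sides without passing, and most other intervals cross 0.

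The paralog Rpl39l was the member that rose in both knockouts. Its signal was 5218, 5203, 5838 and 5674 on wild type 3, 4, 5 and 6. On Sohlh1 knockout 2, 3, 4 and 5 it was 7520.0, 6569, 6722 and 7785. On Sohlh2 knockout 1, 3-1, 4 and 5 it was 8669, 7317, 7380.0 and 7436. Every knockout array lay above every wild-type array, while the knockout groups overlapped with each other. The means were 5484 ± 322, 7149 ± 595 and 7700.4 ± 648 (SD, n = 4 each). The rise in Sohlh1 knockouts was 0.38 on the log2 scale, or 1.30-fold (SE 0.09, 95% interval 0.19 to 0.56, limma adjusted p = 0.0196). In Sohlh2 knockouts it was 0.49, or 1.40-fold (SE 0.09, 95% interval 0.30 to 0.67, limma adjusted p = 0.00463). Between the knockouts it differed by 0.11 (interval -0.08 to 0.29, limma adjusted p = 0.99987).

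The Rpl39l call in Sohlh1 knockouts was lost when wild type 4 (limma adjusted p = 0.0692), Sohlh1 knockout 2 (0.0516) or the array labelled Sohlh1 knockout 5 (0.0665) was left out, and without all 3 doubted arrays the difference was 0.28 (0.0570). In Sohlh2 knockouts the call held when any array was left out, with adjusted p up to 0.0222. It was lost with a replicate block that gave array 3-1 a number of its own (0.42, limma adjusted p = 0.0507). When each array was centred on the ribosomal protein family, the rise was 0.29 (limma adjusted p = 0.161) and 0.38 (0.0501), so neither call survived that centring. Its X-linked parent Rpl39 had a dim probe set, at most 399 on any array, and gave -0.07 and -0.61, each with SE 0.39 and a 95% interval that covers 0. The bright Rpl39 probe set, which also names a predicted locus, gave 0.14 and 0.13 (limma adjusted p = 0.593 and 0.653).

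Rps27l went the other way without passing the threshold. This paralog of Rps27 is known as a target of p53. Its signal was 9610.3, 10791, 11649 and 12246 on wild type 3, 4, 5 and 6. On the Sohlh1 knockout arrays it was 10113, 8988, 9537 and 8380.4, and on the Sohlh2 knockout arrays 10010.5, 8821, 8567 and 8575. Wild type 3, the array where the whole family was lowest, overlaps the knockouts, and the other 3 wild-type arrays lie above all 8 of them. The log2 differences were -0.26 (SE 0.09, limma adjusted p = 0.142) and -0.30 (SE 0.09, 0.0988). All 3 probe sets of Rps27l were below 0 in both comparisons, from -0.15 to -0.26 and from -0.17 to -0.30.

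Relative to the other ribosomal protein genes the Rps27l difference was larger. Centred on the family it was -0.35 (SE 0.08, limma adjusted p = 0.0262) and -0.40 (SE 0.08, 0.0113), and Rps27l was then the only member past the threshold in either comparison. Quantile normalization gave -0.29 (0.0213) and -0.33 (0.0121). Without the arrays of raised 3′/5′ ratio it was -0.30 (0.0401) and -0.35 (0.0220). Under most alternatives Rps27l still did not pass, in 27 of 32 for Sohlh1 knockouts and 23 of 32 for Sohlh2 knockouts. Leaving out each array in turn gave limma adjusted p from 0.0641 to 0.342 and from 0.0428 to 0.261. Centring on the family was added after seeing the data. The parent Rps27 had a probe set that read 112 to 489 and an interval of -0.54 to 1.18 in Sohlh1 knockouts, and the brighter shared probe set gave 0.28 and 0.31 (limma adjusted p = 0.237 and 0.215).

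Rps6, the small-subunit protein that S6 kinases phosphorylate, was called higher in Sohlh2 knockouts from a dim probe set. The signal was 418, 519, 568 and 550.2 in wild type, 784, 603, 351 and 806 on Sohlh1 knockout arrays, and 828, 992, 768 and 922 on Sohlh2 knockout arrays. The Sohlh2 group lay above wild type on every array, while the Sohlh1 group spanned both. The differences were 0.76 in Sohlh2 knockouts (SE 0.20, limma adjusted p = 0.0442) and 0.24 in Sohlh1 knockouts (SE 0.20, 0.554). The Sohlh2 call was lost in 9 of the 12 fits that left out an array, with adjusted p up to 0.111. The brightest probe set that names Rps6, with a mean signal of 39779 and a pseudogene on the same label, gave 0.19 in Sohlh2 knockouts (limma adjusted p = 0.394).

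Rplp0, which anchors the stalk where elongation factors dock, had differences of opposite sign in the knockouts, as did Rps27 (0.32 and -0.20, each with SE 0.41) and, nearer 0, Rps26, Rps15 and Rps4l. It read 21966, 27319.9, 33169.9 and 34404 in wild type, 24695, 25608, 26962 and 23825 in Sohlh1 knockouts, and 25688, 36368, 34626 and 31436 in Sohlh2 knockouts. The wild-type arrays cover nearly the whole range of the others. Its differences were -0.19 and 0.14 (limma adjusted p = 0.475 and 0.642), and 0.33 between the knockouts (unadjusted p = 0.0245, adjusted p = 0.99987). Its stalk partner Rplp2 gave 0.02 and 0.03, each with SE 0.12.

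**Figure D3:**
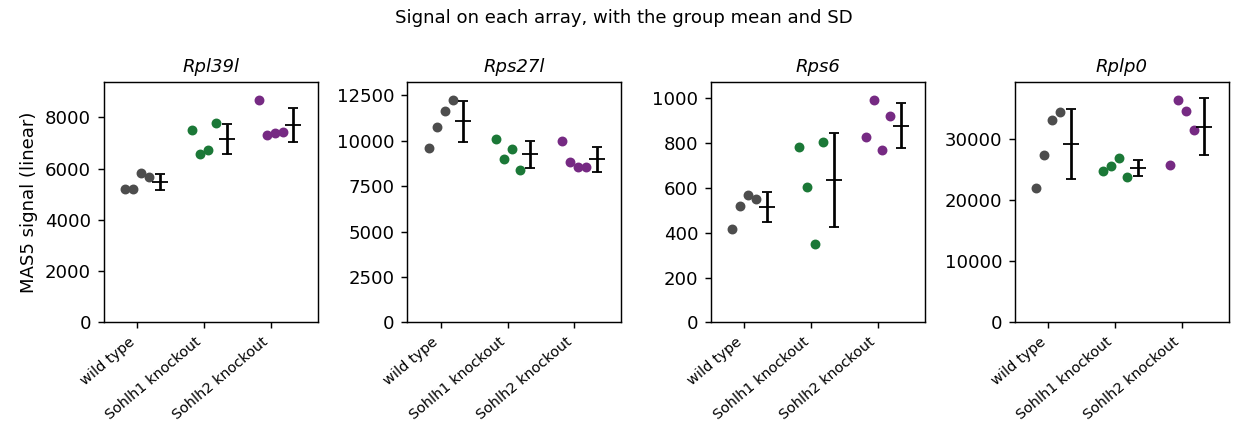
MAS5 signal on a linear axis from 0 for Rpl39l, Rps27l, Rps6 and Rplp0, with each array as a dot, replicates in label order, and the group mean with its SD beside them. Knockout dots lie above wild type for Rpl39l (6569 to 8669 against 5203 to 5838) and mostly below for Rps27l, while Rps6 and Rplp0 spread widely inside a group.

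Some of the members steadiest among wild-type arrays stood a little higher in the knockouts without passing. A narrow wild-type range also makes it easier for groups to stand apart. Rps4x, the X-linked copy of a small-subunit protein, read 23144, 24859, 25343 and 24944 in wild type, 32655, 27206, 27489 and 26099 in Sohlh1 knockouts and 32705, 29714, 27965 and 24836 in Sohlh2 knockouts. Its Sohlh1 knockout arrays all exceed wild type, and Sohlh2 knockout 5 falls among the wild-type arrays. The differences were 0.20 and 0.22 (limma adjusted p = 0.269 and 0.240). Rpl7 and Rpl10a of the large subunit also had Sohlh1 groups that did not overlap wild type, with differences of 0.17 each (adjusted p = 0.308 and 0.323). With Rpl39l this makes 4 of 44 genes whose groups stood apart in the Sohlh1 comparison, all higher, where 6.94% of all genes stood apart as higher. In the Sohlh2 comparison 2 of 44 stood apart as higher, Rpl39l and Rps6, against 5.54%. Rpl7, Rpl10a and Rps4x had the smallest SD of log2 signal among wild-type arrays (0.08, 0.08 and 0.06), and Rps27, Rpl39, Rpl3l, Rps25 and Rpl12 the largest (0.80, 0.60, 0.43, 0.39 and 0.33). The autosomal Rps4l, which RefSeq lists as a transcribed pseudogene, read 8828 to 11078 on the 12 arrays and gave -0.05 and 0.01.

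Where a gene had several probe sets, they did not always give the same difference, on dim and on some bright ones. Of the 45 genes 22 had more than 1, up to 6. The 4 brightest of 6 Rps10 probe sets gave 0.04 to 0.14 in Sohlh1 knockouts and 0.07 to 0.20 in Sohlh2 knockouts. Another, also bright with a mean signal of 13005, gave 0.74 and 0.85, each with SE 0.37, and its wild-type arrays alone read 18061, 10823, 4634 and 4888. For Rps24 the lowest differences, -0.53 and -0.72, came from a probe set with a mean signal of 39.0, while the 4 bright ones gave 0.06 to 0.24. For Rpl35 the highest, 0.86 in Sohlh1 knockouts, came from a probe set with a mean signal of 52.9, and its 5 bright probe sets gave 0.12 to 0.21 over both knockouts. Rps20 ran from -0.20 on a dim probe set to 0.26 on a bright one in Sohlh1 knockouts. For Rpl41 the lowest value there, -0.24, came from a dim probe set, and its bright probe sets disagreed. The brightest gave 0.03 in each knockout, while the other, with a mean signal of 25580, gave 0.38 and 0.37 (SE 0.13, limma adjusted p = 0.188 and 0.221).

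**Figure D4:**
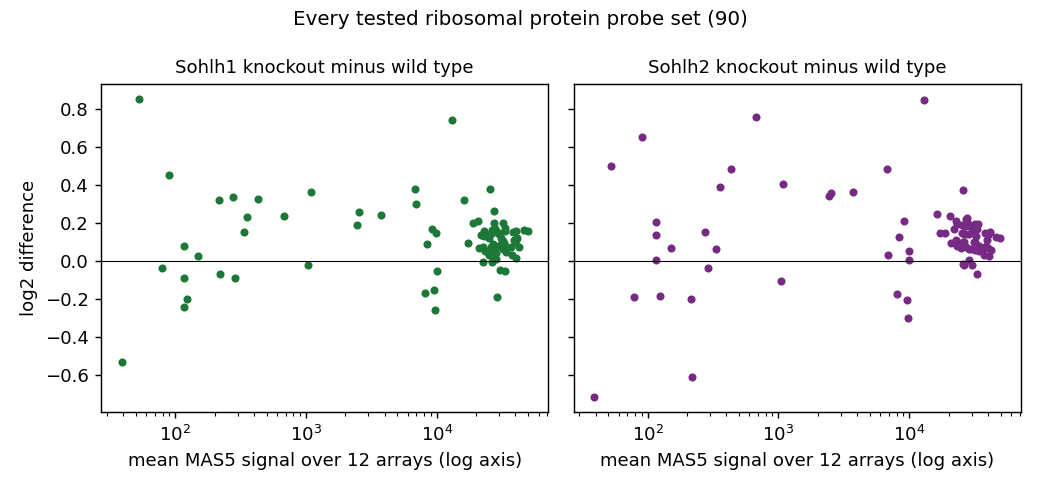
Every dot is 1 of the 90 tested ribosomal protein probe sets, with its mean signal over 12 arrays on a logarithmic horizontal axis and its log2 difference from wild type on the vertical axis, for Sohlh1 knockout (left) and Sohlh2 knockout (right). Most bright probe sets lie near 0, but bright ones of Rps10 (0.74 and 0.85) and Rpl41 (0.38 and 0.37) lie well above it, and wide differences such as -0.72 for Rps24 and 0.86 for Rpl35 lie on dim probe sets.

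Around the ribosome, some of the genes that build it fell in both knockouts. Of 52 ribosome biogenesis genes tested, 8 were lower in Sohlh1 knockouts and 7 in Sohlh2 knockouts, and none passed as higher, where 2.69% and 2.15% of all genes were lower. The median difference was -0.14 and -0.08. Ddx21, an RNA helicase of the nucleolus, had signals of 1383, 1390.4, 1447 and 1731 in wild type. It read 891, 924, 839.6 and 1040.3 in Sohlh1 knockouts and 977, 948, 918 and 1187 in Sohlh2 knockouts. Both knockout groups lie below all wild-type arrays, by -0.68 (SE 0.11, limma adjusted p = 0.00155) and -0.56 (SE 0.11, 0.00813). With the mean of all its probe sets both calls were lost, at -0.33 (limma adjusted p = 0.0813) and -0.26 (0.178). The Sohlh2 call was also lost with a replicate block that gave array 3-1 a number of its own (-0.43, limma adjusted p = 0.109). Pes1, a large-subunit assembly factor, fell from 2764 ± 328 to 1966 ± 204 and 1888 ± 160.1 (SD, n = 4 each). Noc4l, of the small-subunit assembly, fell from 1718 ± 110.0 to 1210.3 ± 159 and 1137 ± 161.

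Noc3l, Nat10 and Ftsj3 also passed in both knockouts, Bop1 and Nolc1 in the Sohlh1 comparison, and Nip7 in the Sohlh2 comparison. In the Sohlh1 comparison the count of 8 depended on the arrays. It was 1 without wild type 6, 4 without wild type 5 or Sohlh1 knockout 4, 5 without wild type 4 or Sohlh1 knockout 2, 3 or 5, and 5 without the 3 doubted arrays. The Sohlh2 count of 7 became 4 without wild type 5 or wild type 6 and 11 without the doubted arrays. Averaging all probe sets of a gene left 3 and 2, and array weights gave 10 and 13. A replicate block with array 3-1 as a number of its own left 4 in Sohlh1 knockouts and 0 by limma in Sohlh2 knockouts (17 lower at an unadjusted p under 0.05), and with 3-1 read as 3 it left 6 in each. The number of all genes passing as lower moved too. It was 368 and 295 in the main fit, and 193 to 609 and 101 to 570 over the alternatives. The biogenesis counts of single alternatives are given without the share of all genes in the same fit, so they describe both. Several marker genes of differentiating spermatogonia were lower as well, 5 of 8 passing in Sohlh1 knockouts and 4 of 8 in Sohlh2 knockouts. The 8 markers summed to 18609 to 21504 in wild type, 11829 to 13154 in Sohlh1 knockouts and 11631 to 15650.2 in Sohlh2 knockouts. These 8 include the targeted genes themselves. Without Sohlh1 and Sohlh2 the other 6 summed to 16451 to 19292, 10751 to 11310.5 and 10995 to 13677. Among these, Kit, Crabp1, Dmrtb1 and Esx1 had log2 differences of -1.92 to -2.51 in Sohlh1 knockouts and -1.95 to -2.22 in Sohlh2 knockouts. Ccnd2, with mean signals of 6462 and 7535 in the knockouts, makes up much of the sums. The list did not fall as 1, since its highest difference, that of Ccnd2, was -0.06 in Sohlh1 knockouts and 0.15 in Sohlh2 knockouts. The part of that cell type in the biogenesis genes was not tested.

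Another paralog, Rpl22l1, falls outside the rule by its name. Its signal was 14309.5, 14167, 13913 and 12698 in wild type. It was 22214, 18526, 18849 and 18657 in Sohlh1 knockouts and 20319, 19719.5, 18483 and 17102 in Sohlh2 knockouts, with no overlap. The rises were 0.50 (SE 0.09, limma adjusted p = 0.00298) and 0.46 (SE 0.09, 0.00721), and it passed in every fit that left out an array. The Sohlh2 call was lost with a replicate block that gave array 3-1 a number of its own (0.33, limma adjusted p = 0.0734). The brightest probe set of its parent Rpl22 gave 0.01 in each comparison. The other Rpl22 probe sets gave 0.10 and 0.15 (mean signal 17322) and 0.26 and 0.36 (mean signal 2537, limma adjusted p = 0.224 and 0.0958), so the Rpl22 values depend on the probe set, and the difference between the paralogs was not tested. Rpsa, Rps3a1, Rpl7l1 and Fau, the other ribosomal proteins outside the rule that were tested, did not pass, and Rpsa had the highest values of these, 0.16 and 0.24.

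Few other genes of translation passed. Of 17 elongation factors and other genes with TOP mRNAs 0 passed by limma in either comparison (2 and 4 at an unadjusted p under 0.05, where 19% and 17.5% of all genes reached it), with medians of 0.07 and 0.09. Of 19 initiation factors 0 passed (2 and 1 unadjusted), with medians of -0.08 and -0.06. Eif4ebp1, the translation repressor that mTORC1 phosphorylates, fell in Sohlh1 knockouts from 3056 ± 345 to 2254 ± 296 (log2 difference -0.44, SE 0.12, limma adjusted p = 0.0387) and was at -0.37 in Sohlh2 knockouts (0.0941). It was the member of 14 mTORC1 and TOP-control genes that passed. Of 76 mitochondrial ribosomal genes 3 were lower in Sohlh1 knockouts, Mrps7, Mrpl40 and Mrpl18, and 1 in Sohlh2 knockouts, Mrpl18, with medians of -0.04 in both. These counts are near the 2.69% and 2.15% of all genes that were lower. In Sohlh2 knockout against Sohlh1 knockout 0 genes of these 6 lists passed by limma, and 0 had an unadjusted p under 0.05.

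**Figure D5:**
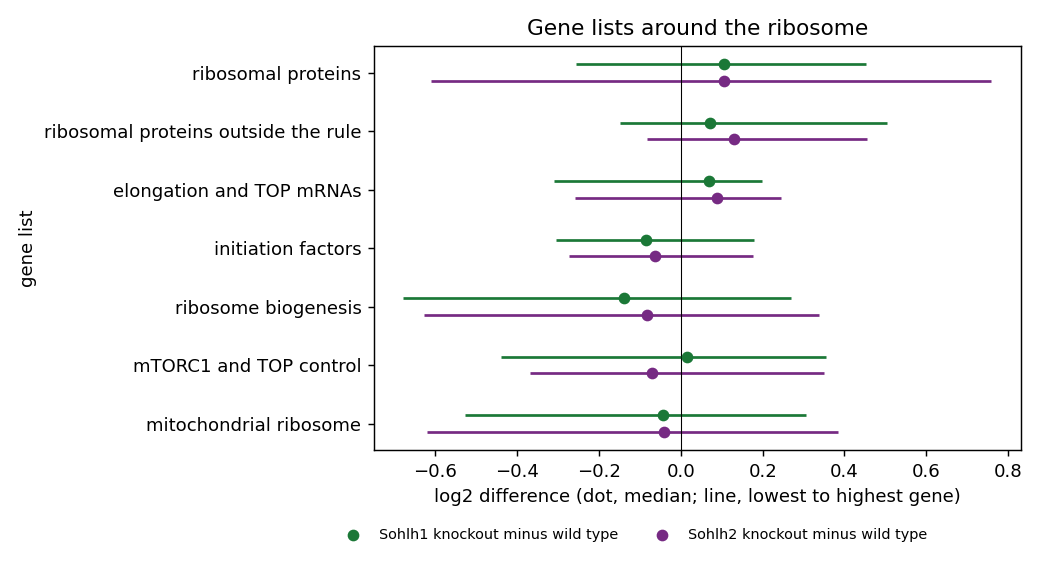
For each gene list around the ribosome, the dot is the median log2 difference from wild type and the line runs from the lowest to the highest gene, for Sohlh1 knockout (green) and Sohlh2 knockout (purple). Ribosomal proteins have medians of 0.11 and 0.10 and biogenesis genes -0.14 and -0.08, with lines that overlap widely.

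Summed markers of the other cell types differed less, though some single germ-cell genes rose. Pan-germ-cell markers summed to 27593 to 30997 in wild type, 26803 to 30629 in Sohlh1 knockouts and 27845 to 31305 in Sohlh2 knockouts. Of these 8, Dppa4 rose by 1.33 and 1.32 on the log2 scale and Stk31 by 0.50 and 0.55 (limma adjusted p at most 0.00407), and none passed as lower. Only 3 of the 8 were above 0 in each knockout, with medians of -0.13 and -0.02 and lowest differences of -0.38 and -0.37. Undifferentiated spermatogonia markers summed to 4234 to 4737, 4712 to 6155 and 4459 to 6564. Of the 8 tested, Gfra1, the GDNF co-receptor, rose by 0.97 and 1.01 and Id4 by 0.82 and 0.81 (limma adjusted p at most 0.00114). Sertoli markers summed to 66885 to 74827, 75422 to 82732 and 70789 to 79214, so the Sohlh1 group lay above wild type. Their part in the family's level was not tested. Markers of endothelium, leukocytes, red cells, fat and epididymis were low in all groups, at most 3666 summed over 8 leukocyte genes. Leydig markers summed to 11589 to 14299.7 over all arrays and peritubular muscle markers to 39717 to 47368, of which Actg2 fell in Sohlh2 knockouts (-0.46, limma adjusted p = 0.0455).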

How the data were processed

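The submitters' processing notes name MAS5 and GCOS as the tools behind the deposited intensity of each probe set, with versions not given in the sources used here. In the deposited intensity table the 12 arrays have equal means after trimming 2% from each end. Here 14.2, the 20th percentile, was added before log2 was taken, and 28694 probe sets above 48.6 (the 40th percentile) on at least 4 arrays were kept. A gene was its tested single-symbol probe set of highest mean log2 value. Probe sets were named by GEO's platform annotation: 34945 had 1 symbol, 932 several and 9160 none. All 98 member probe sets matched RefSeq and no symbol changed.

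Groups were compared with limma 3.58.1 in R 4.3.3 (lmFit on all 12 arrays, eBayes with trend, two-sided, Benjamini-Hochberg over 13702 genes). P-values measure the spread between pools. MAS5 scaling fixes each array's overall mean, so a change shared by all genes cannot be seen, and the precision is limited by 4 arrays a group. Cross-hybridisation between ribosomal protein genes and their many processed pseudogenes can affect any member. On simulated data for the Sohlh1 comparison with 13702 genes, 8% of 1.25-fold, 52% of 1.5-fold, 82% of 2-fold and 92% of 3-fold changes were recovered. Members, lists and alternatives were chosen with earlier results of these data known. Named genes were those called, the 4 of smallest p per contrast, the 5 highest and 5 lowest wild-type signals, stalk proteins, paralogs with their parents, the 5 most and 3 least variable, genes with the most divergent probe sets, the targeted genes, and up to 4 per list, with all genes called in a list. Alternatives changed the offset, scaling, filter, choice of probe set, variance model, block and arrays. Figures used matplotlib 3.10.9.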

Additional observations from a re-analysis of the deposited data

Results flagged for a closer look

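Among 75 groups of 4 arrays checked, 3 held an array far from the other 3 (its gap to the nearest, over the group's range, exceeded Dixon's 95% critical value), where chance alone flags about 1 group in 20. Rpl39l on the array labelled Sohlh2 knockout 1 read 8669, above the 7317 to 7436 of the others in its group. Rps27 on wild type 6 read 427, above 116 to 159. Rps28 on Sohlh2 knockout 5 read 40166, below 48813 to 49776.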

How the results depend on the processing

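Ribosomal protein genes called in Sohlh1 knockouts numbered 1, and 2 under quantile normalization, array weights, the 3′/5′ ratio as a covariate or without the arrays of raised ratio, 0 without the 3 doubted arrays, and 0 to 1 when each array was left out in turn. The 2 calls in Sohlh2 knockouts became 1 with no filter, the mean of all probe sets or every probe set by itself. No trend and the widened membership also left 1. Array weights gave 4, and leaving out each array 1 to 2. Centred on the family, neither Rpl39l nor Rps6 passed. The 1 call in each comparison with wild type was then Rps27l, which was lower. The widened membership and the centring were added after seeing the data. No call arose between the knockouts under any of the 33 alternatives. Family medians moved by less than 0.14, the pooled SD of the array medians within groups. That SD exceeds the medians of 0.11 and 0.10 themselves, so even a full loss of the shift would not count as a move. Leaving out each array gave 0.06 to 0.17, 0.04 to 0.18 and -0.04 to 0.07. The lowest medians of any alternative were 0.01, 0.0006 and -0.08. Centring on the family takes the shared shift out by construction, and quantile normalization largely does so. All genes called ranged from 322 to 1086, 148 to 1020 and 0 to 4, the lower limit in Sohlh2 knockouts with a replicate block. The ribosomal protein counts of single alternatives are given without the number of all genes called in the same fit, so they describe both. The arrays share only a number across groups: deviations of the 9 same-numbered pairs correlated at -0.03 to 0.08. A replicate block with array 3-1 as number 3 kept 1 and 2 calls, and with 3-1 as a number of its own 1 and 0. The cause of these changes was not tested. Dim probe sets limit Rps6, Rpl39, Rps27 and Rpl3l, and small differences were mostly missed in simulated data.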
